A study of Homo sapiens with 12 samples.

Results

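Desmosomes and tight junctions hold the cells of an epithelium together, and 9 of their genes were followed here in colon cancer cells that kept only the mutant or only the wild-type allele of the PI3K catalytic subunit. The genes were picked by name, with earlier results of these data known. Of them 6 encode desmosome proteins (DSC2, DSG2, DSP, PKP2, PKP3 and JUP) and 3 encode tight junction proteins (TJP1, TJP3 and OCLN). Each is read by 1 transcript cluster, a group of probes along one gene, and the 9 stand among 18378 genes. Every other gene was taken from a cluster with a single gene name; for the OCLN cluster the platform annotation also leads to OCLNP1, a transcribed pseudogene of OCLN, and signal from the gene and from the pseudogene cannot be told apart.

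The cells are HCT116 and DLD1, established human colorectal cancer lines. HCT116 mutant-only cells had lost the wild-type allele by knockout, and HCT116 wild-type-only cells had lost the mutant allele. DLD1 mutant-only and DLD1 wild-type-only cells were made in the same way, and the mutation differs between the lines. By the labels the mutant allele is H1047R in HCT116 and E545K in DLD1. Every group was kept in McCoy's medium with 0.5% serum for 19 h and contributed 3 arrays that the labels call biological replicates, 12 arrays in all. The labels name no parental cells and no more than 1 derived line for each genotype of each line, so genotype and derived line cannot be told apart, and nothing says that the replicates were separate cultures: the p-values measure the spread between these arrays.

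A desmosome joins the keratin filaments of neighbouring cells. Desmocollins and desmogleins, the desmosomal cadherins, reach across the gap between the cells; inside, plakoglobin and the plakophilins bind the cadherin tails, and desmoplakin ties that plaque to keratin. DSC2 and DSG2 are the main desmosomal cadherins of the intestinal lining. A tight junction seals the space between cells nearer their free surface: occludin and the claudins form its strands, and scaffold proteins of the zonula occludens family tie the strands to actin.

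All values are log2 expression levels as deposited, and all differences are log2 differences, mutant-only minus wild-type-only or HCT116 minus DLD1. Adjusted p-values come from limma, fitted over all 12 arrays and adjusted over all 18378 genes by the Benjamini-Hochberg method, with a difference counted at an adjusted p under 0.05. Array medians lay between 7.42 and 7.53, and arrays of the same group correlated at 0.9952 to 0.9983 over all genes. Of 8 colorectal epithelial markers 7 lay above the array median in every group, while villin (VIL1) averaged 6.51 to 6.99. Of the markers of other cell types, 1 of 8 mesenchymal (COL1A1), 1 of 6 leukocyte (CD68) and 0 of 4 endothelial markers lay above it, and the leukocyte marker PTPRC averaged 5.01 to 5.08. The summed epithelial markers were 88.6 to 89.2 in HCT116 mutant-only, 88.2 to 89.0 in HCT116 wild-type-only, 93.0 to 94.2 in DLD1 mutant-only and 93.4 to 93.9 in DLD1 wild-type-only cells. The RNA is from bulk cultures, in which fewer expressing cells and less RNA per cell cannot be told apart.

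**Figure D1:**
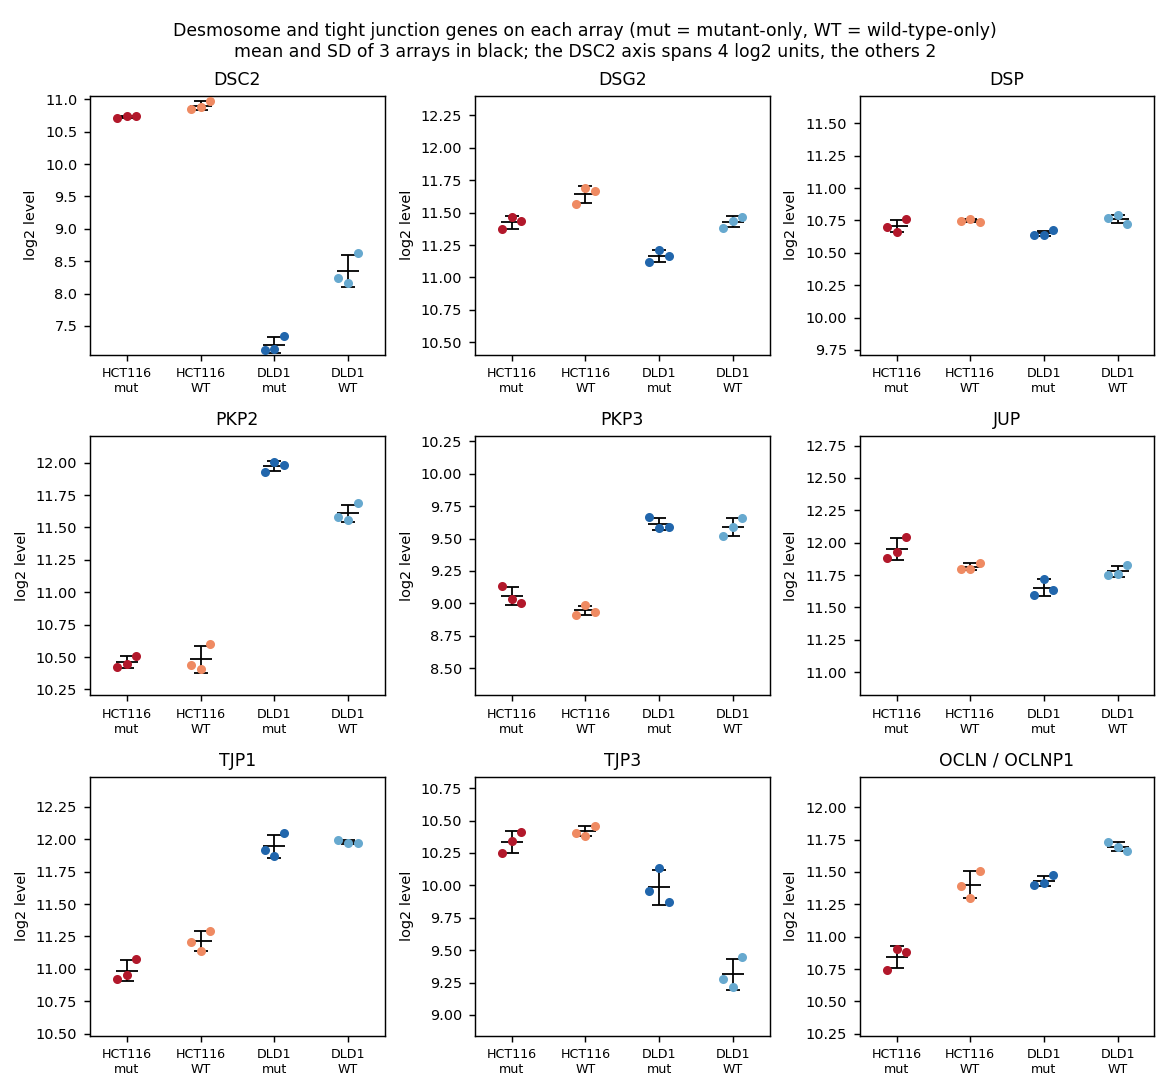
Log2 level of each of the 9 genes (vertical axis, 1 panel a gene with its own scale) on the 12 arrays, by group; points are arrays, and black marks are the mean and SD of 3. The DSC2 axis is longer than the others; DSC2 lies between 10.72 and 10.98 in HCT116 and between 7.14 and 8.63 in DLD1, while the DSP group means span 0.109.

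Among the 9 genes the 2 with a called deficit in mutant-only cells of both lines were DSG2 and OCLN, and the largest deficit was that of DSC2 in DLD1. In HCT116, 3 of the 9 genes were lower in mutant-only cells (DSG2, TJP1 and OCLN) and 0 were higher. In DLD1, 3 were lower (DSC2, DSG2 and OCLN) and 2 were higher (PKP2 and TJP3). Over all genes, 4.02% were higher and 2.15% lower in HCT116 mutant-only cells, and 5.66% were higher and 3.11% lower in DLD1 mutant-only cells. Subtracting each array's median moved the share of higher calls in DLD1 to 80%, against 64.5% as deposited. The median difference of the 9 genes was -0.083 in HCT116 and -0.109 in DLD1, beside -0.00105 and -0.00715 over all genes in those comparisons. The 3 arrays of the groups did not overlap for 6 of the 9 genes in HCT116 and for 7 of 9 in DLD1. Of all genes, 22.0% and 28.3% had groups that did not overlap. The 9 genes were picked with earlier results of these data known, so their counts and ranks beside all genes are a description, not a test.

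The 2 genotype comparisons use different arrays, so the difference between them could be tested directly as the HCT116 difference minus the DLD1 difference. That test passed for 3 of the 9 genes: the value was positive for DSC2 and negative for PKP2 and TJP3. Over all genes 3.68% had a positive and 3.43% a negative value that passed. For the other 6 genes no difference between the lines was called, which does not show that the genotype acts alike in both lines.

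DSC2, desmocollin 2, differed most among the groups. It read 10.72, 10.74 and 10.74 in HCT116 mutant-only and 10.85, 10.88 and 10.98 in HCT116 wild-type-only cells. In DLD1 it read 7.14, 7.14 and 7.34 in mutant-only and 8.23, 8.17 and 8.63 in wild-type-only cells. Neither pair of genotypes overlapped, with the mutant-only arrays below in both lines, and every HCT116 array lay above every DLD1 array. The DLD1 mutant-only levels lay below the array medians, and signal over background was not assessed. In DLD1 mutant-only cells DSC2 was 2.20-fold lower (log2 difference -1.14, SE 0.0994, adjusted p = 9.21e-06). In HCT116 the difference was -0.17 and did not pass (adjusted p = 0.407, 95% interval -0.385 to 0.0442). The difference between these values, 0.97 (SE 0.141), passed with an adjusted p of 0.000864, so the deficit in mutant-only cells was larger in DLD1. The range of its 4 group means, 3.70, ranked 89 of 18378 genes, and 0.484% of genes had a range at least as wide. A table deposited by the authors also lists DSC2 as down, with a fold ratio of 2.2031102. The group values of that table's comparison equal the DLD1 group means here to within 1e-06.

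DSG2, desmoglein 2, showed a small deficit in mutant-only cells of both lines. Its levels were 11.37, 11.47 and 11.44 in HCT116 mutant-only and 11.57, 11.69 and 11.66 in HCT116 wild-type-only cells. The DLD1 levels were 11.12, 11.21 and 11.16 in mutant-only and 11.38, 11.44 and 11.47 in wild-type-only cells. Within each line all mutant-only arrays lay below all wild-type-only arrays, while HCT116 mutant-only and DLD1 wild-type-only cells overlapped. DSG2 was 1.16-fold lower in HCT116 mutant-only cells (-0.22, SE 0.0525, adjusted p = 0.0268) and 1.20-fold lower in DLD1 mutant-only cells (-0.27, SE 0.0525, adjusted p = 0.00654). The values of the lines differed by 0.05, with an interval of -0.110 to 0.210 and an adjusted p of 0.824. The HCT116 call ended when the 6 HCT116 arrays were fitted alone (adjusted p = 0.0922) and when any 1 of 4 arrays was left out: mutant-only replicate 1 (adjusted p = 0.113) or 3 (0.0607), or wild-type-only replicate 2 (0.0958) or 3 (0.0784).

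OCLN, occludin, was lower in mutant-only cells of both lines, with the limit that its cluster may also read OCLNP1. It had 10.74, 10.90 and 10.88 in HCT116 mutant-only and 11.39, 11.30 and 11.51 in HCT116 wild-type-only cells. It had 11.40, 11.41 and 11.48 in DLD1 mutant-only and 11.73, 11.69 and 11.66 in DLD1 wild-type-only cells. The genotypes were apart in each line, HCT116 mutant-only cells were the lowest group, and the HCT116 wild-type-only and DLD1 mutant-only arrays overlapped. OCLN was 1.47-fold lower in HCT116 mutant-only cells (-0.56, SE 0.0618, adjusted p = 9.85e-05) and 1.20-fold lower in DLD1 mutant-only cells (-0.26, adjusted p = 0.0169). The values of the lines differed by -0.29 (SE 0.0875, adjusted p = 0.0629), which did not pass. With replicate number blocked it passed (0.0494), as it did after median centring (0.0457), with array weights (0.0322) and without HCT116 wild-type-only replicate 2 (0.0364). The DLD1 call ended when replicate 1 of the wild-type-only cells was left out (0.0726) and without replicate 1 (0.0673) or 2 (0.0564) of the DLD1 mutant-only cells.

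The start regions of these 3 genes are shown because they are the genes with the largest deficit or with a deficit in both lines. Each line gives RefSeq sequence of GRCh38.p14 from 250 bases before to 50 bases after an annotated start site, 5′ to 3′ on the gene's strand, and capitals mark the E-box CAGGTG or its reverse complement CACCTG, which repressors of the SNAI and ZEB families bind. The windows are chr18:31102372-31102671 on the minus strand for DSC2, chr18:31497927-31498226 on the plus strand for DSG2 and chr5:69492297-69492596 on the plus strand for OCLN.
DSC2: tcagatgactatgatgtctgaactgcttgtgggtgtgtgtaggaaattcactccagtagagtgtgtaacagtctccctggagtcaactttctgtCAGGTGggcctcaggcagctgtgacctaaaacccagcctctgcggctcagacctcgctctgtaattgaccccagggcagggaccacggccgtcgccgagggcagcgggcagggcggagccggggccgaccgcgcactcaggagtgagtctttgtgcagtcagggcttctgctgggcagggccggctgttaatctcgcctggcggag
DSG2: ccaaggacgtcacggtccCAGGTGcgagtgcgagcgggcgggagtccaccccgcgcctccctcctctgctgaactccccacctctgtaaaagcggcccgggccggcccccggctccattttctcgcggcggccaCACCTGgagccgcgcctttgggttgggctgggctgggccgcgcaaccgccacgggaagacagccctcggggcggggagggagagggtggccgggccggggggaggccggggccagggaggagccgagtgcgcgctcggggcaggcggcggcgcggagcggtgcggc
OCLN: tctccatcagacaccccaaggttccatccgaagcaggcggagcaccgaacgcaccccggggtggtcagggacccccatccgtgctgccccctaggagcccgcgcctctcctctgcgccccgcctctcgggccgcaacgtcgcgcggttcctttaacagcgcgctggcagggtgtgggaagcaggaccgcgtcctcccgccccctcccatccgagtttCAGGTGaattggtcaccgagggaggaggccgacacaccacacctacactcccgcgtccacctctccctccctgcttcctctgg
The E-box begins at position -156 from the start site in DSC2, at -232 and -116 in DSG2 and at -33 in OCLN. A window at another annotated start of DSC2 held 0 E-boxes, and one at another start of OCLN held 2, at -133 and 36. RefSeq windows were matched for 7 of the 9 genes, with PKP2 and PKP3 as the others. They came to 14 windows, of which 8 held the E-box, beside 20.6% of all 35116 windows. All 7 genes had at least 1 such window, beside 24.1% of 27305 genes, and a gene with more windows has more chances of a match. The TEAD motif GGAATG, searched on both strands, was in 0 of the 14 windows and in 14% of all windows. The windows shown were 60.7% (DSC2), 76.7% (DSG2) and 68% (OCLN) G and C, against a median of 58.7% over all windows, and the shares are not adjusted for it. No genotype difference was called for the repressor genes SNAI1, SNAI2, ZEB1 and ZEB2. Their adjusted p-values by limma were 0.242 or more in HCT116 and 0.348 or more in DLD1. SNAI2, ZEB1 and ZEB2 averaged below the array medians. A match describes the letters of the window and says nothing of binding in these cells.

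PKP2 and PKP3, plakophilins and so armadillo proteins of the desmosome plaque, were higher in DLD1 than in HCT116, and PKP2 also differed between the DLD1 genotypes. PKP1, a plakophilin outside the 9, averaged between 6.80 (DLD1 mutant-only) and 6.96 (HCT116 wild-type-only), below the array medians. PKP2 read 10.42, 10.44 and 10.51 in HCT116 mutant-only and 10.44, 10.41 and 10.60 in HCT116 wild-type-only cells. In DLD1 it read 11.93, 12.004 and 11.98 in mutant-only and 11.58, 11.56 and 11.69 in wild-type-only cells. The HCT116 genotypes overlapped, and the DLD1 mutant-only arrays all lay above the wild-type-only ones. PKP2 was 1.29-fold higher in DLD1 mutant-only cells (0.36, SE 0.0604, adjusted p = 0.00207), against a difference of -0.02 in HCT116 (adjusted p = 0.9), and these values differed by -0.38 (SE 0.0855, adjusted p = 0.0143). Within DLD1 mutant-only cells 1 desmosome plaque gene, PKP2, was higher while both desmosomal cadherin genes among the 9 were lower. The other plaque genes among the 9, PKP3, JUP and DSP, had no called difference in DLD1 (0.02, -0.13 and -0.11).

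PKP3 showed no called genotype difference. Its levels were 9.14, 9.04 and 9.005 in HCT116 mutant-only and 8.91, 8.98 and 8.94 in HCT116 wild-type-only cells. They were 9.67, 9.58 and 9.59 in DLD1 mutant-only and 9.52, 9.59 and 9.66 in DLD1 wild-type-only cells. The HCT116 genotypes did not overlap, with mutant-only cells above, but the difference of 0.11 did not pass (adjusted p = 0.295); the DLD1 genotypes overlapped at a difference of 0.02 (adjusted p = 0.845).

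JUP, plakoglobin, which the desmosome shares with the adherens junction, had values of opposite sign in the lines, neither of which passed. It read 11.88, 11.93 and 12.05 in HCT116 mutant-only and 11.80, 11.80 and 11.85 in HCT116 wild-type-only cells. In DLD1 it read 11.60, 11.72 and 11.64 in mutant-only and 11.75, 11.76 and 11.83 in wild-type-only cells. Mutant-only arrays were all above in HCT116 (0.14, adjusted p = 0.195) and all below in DLD1 (-0.13, adjusted p = 0.198). The difference between the lines, 0.26 (SE 0.0784), had an adjusted p of 0.0635, and fell under the threshold with replicate number blocked (0.0427), quantile scaling (0.0359), cyclic loess (0.0431) and an intensity trend (0.0483).

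DSP, desmoplakin, was the most even of the 9. It read 10.70, 10.66 and 10.76 in HCT116 mutant-only, 10.75, 10.76 and 10.74 in HCT116 wild-type-only, 10.64, 10.64 and 10.67 in DLD1 mutant-only and 10.77, 10.79 and 10.72 in DLD1 wild-type-only cells. Its 4 group means spanned 0.109, and 81.6% of genes spanned at least as much. The genotype differences were -0.04 in HCT116 (adjusted p = 0.706, interval -0.142 to 0.0561) and -0.11 in DLD1 (adjusted p = 0.176), where the mutant-only arrays lay below the others. Quantile scaling gave an adjusted p of 0.0489 for DLD1 and array weights gave 0.0189, so the DLD1 difference passed under those settings.

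TJP1 and TJP3 are tight junction scaffolds of the zonula occludens family; TJP3 was higher in DLD1 mutant-only cells and TJP1 was lower in HCT116 mutant-only cells. TJP3 read 10.25, 10.34 and 10.42 in HCT116 mutant-only and 10.41, 10.38 and 10.46 in HCT116 wild-type-only cells, which overlapped. In DLD1 it read 9.96, 10.14 and 9.87 in mutant-only and 9.28, 9.22 and 9.45 in wild-type-only cells, which were well apart. TJP3 was 1.59-fold higher in DLD1 mutant-only cells (0.67, SE 0.0767, adjusted p = 9.62e-05), and its HCT116 difference was -0.08 (adjusted p = 0.65). The 2 values differed by -0.76 (SE 0.108, adjusted p = 0.000798).

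TJP1 read 10.92, 10.96 and 11.08 in HCT116 mutant-only and 11.21, 11.14 and 11.29 in HCT116 wild-type-only cells. In DLD1 it read 11.92, 11.87 and 12.05 in mutant-only and 11.99, 11.97 and 11.97 in wild-type-only cells. The HCT116 mutant-only arrays lay below the wild-type-only ones, whereas the DLD1 genotypes overlapped. TJP1 was 1.17-fold lower in HCT116 mutant-only cells (-0.23, SE 0.062, adjusted p = 0.0452), and its DLD1 difference was -0.03 (adjusted p = 0.811). The difference between the lines, -0.20, did not pass (adjusted p = 0.24). The HCT116 call was near the threshold and ended in 11 of 21 alternative settings. Leaving out HCT116 mutant-only replicate 1 or 2 gave 0.163 or 0.123, and leaving out HCT116 wild-type-only replicate 1 or 3 gave 0.112 or 0.143. Leaving out DLD1 mutant-only replicate 1 gave 0.0649, and leaving out DLD1 wild-type-only replicates 1 to 3 in turn gave 0.0671, 0.0582 and 0.0525.

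**Figure D2:**
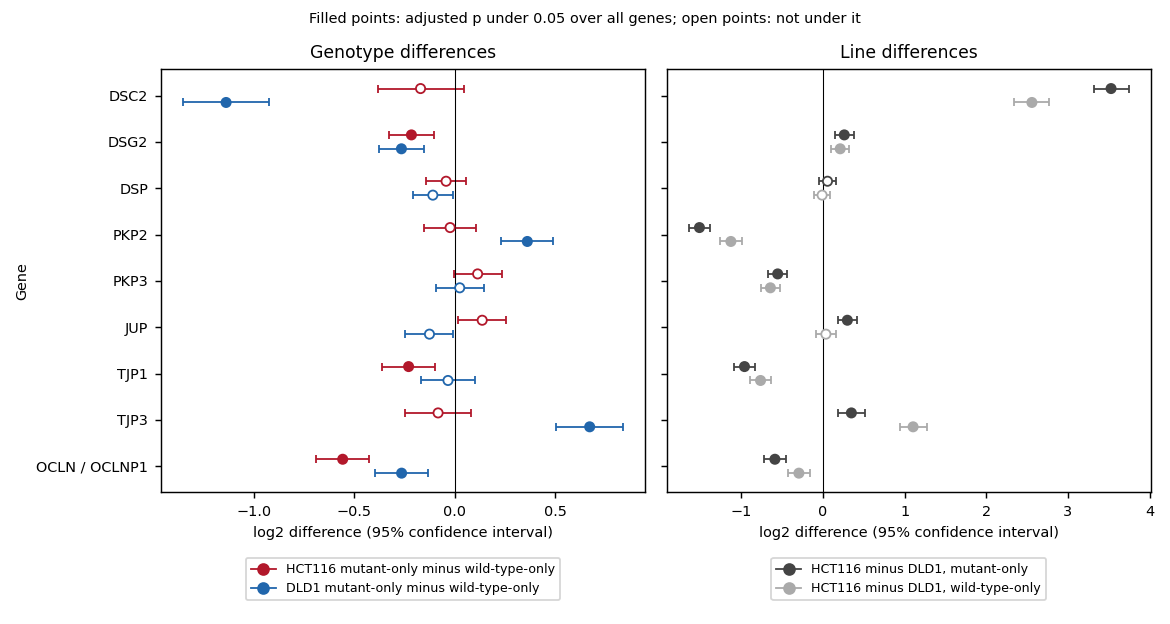
Log2 differences of the 9 genes with 95% confidence intervals: mutant-only minus wild-type-only by line (left) and HCT116 minus DLD1 in each genotype (right); filled points have an adjusted p under 0.05 over all genes. In DLD1 the interval of DSC2 lies below 0 at -1.14 and that of TJP3 above 0 at 0.67, while OCLN and DSG2 lie below 0 in both lines.

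More of the 9 genes differed between the lines than between the genotypes. In mutant-only cells 4 of 9 genes were higher in HCT116 (DSC2, DSG2, JUP and TJP3) and 4 were lower (PKP2, PKP3, TJP1 and OCLN), where 24.3% and 26.3% of all genes were higher and lower. In wild-type-only cells 3 were higher (DSC2, DSG2 and TJP3) and the same 4 were lower, where 23.3% and 25.5% of all genes were. Among the calls over all genes in mutant-only cells 48% were higher, and 37% after median centring. The summed epithelial markers were lower in HCT116 than in DLD1, and their part in these differences was not tested. DSC2 was higher in HCT116 than in DLD1 by 3.53 on the log2 scale among mutant-only cells (adjusted p = 2.65e-12). Its DLD1 mutant-only levels lay below the array medians, and signal over background was not assessed. Among wild-type-only cells DSC2 was 5.89-fold higher in HCT116 (2.56, adjusted p = 7.06e-11).

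PKP2, PKP3 and TJP1 had the opposite order. PKP2 was 2.85-fold lower in HCT116 among mutant-only cells (-1.51, adjusted p = 8.83e-11), and -1.13 on the log2 scale among wild-type-only cells (adjusted p = 2.07e-09). PKP3 differed by -0.55 among mutant-only (adjusted p = 1.18e-06) and -0.64 among wild-type-only cells (adjusted p = 2.67e-07). TJP1 was 1.95-fold lower in HCT116 among mutant-only cells (-0.96, adjusted p = 1.37e-08) and 1.70-fold lower among wild-type-only cells (-0.76, adjusted p = 1.53e-07).

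For TJP3 the gap between the lines differed by genotype, by the interaction test above. TJP3 was 1.27-fold higher in HCT116 among mutant-only cells (0.35, adjusted p = 0.00157) and 2.15-fold higher among wild-type-only cells (1.10, adjusted p = 3.07e-08). OCLN was 1.50-fold lower in HCT116 among mutant-only cells (-0.59, adjusted p = 2.05e-06), and -0.29 on the log2 scale among wild-type-only cells (adjusted p = 0.00113). DSG2 was higher in HCT116 by 0.26 among mutant-only (adjusted p = 0.000768) and by 0.21 among wild-type-only cells (adjusted p = 0.00386). JUP was higher by 0.30 in mutant-only cells (adjusted p = 0.000403) and by 0.04 in wild-type-only cells, which did not pass (adjusted p = 0.648), and DSP passed in neither (0.06 and -0.01) except by quantile scaling (adjusted p = 0.00914) and cyclic loess (0.0366) in mutant-only cells.

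The 7 desmosomal cadherin genes lie in a row on chromosome 18, in the order DSC3, DSC2, DSC1, DSG1, DSG4, DSG3 and DSG2. Of the other 5, DSC3 was singled out after its values were seen: it averaged 8.90 ± 0.243 in HCT116 mutant-only, 8.94 ± 0.165 in HCT116 wild-type-only, 5.56 ± 0.097 in DLD1 mutant-only and 5.48 ± 0.0887 in DLD1 wild-type-only cells (SD, n = 3 each). It was higher in HCT116, at a log2 difference of 3.34 among mutant-only cells (adjusted p = 1.38e-11) and 3.46 among wild-type-only cells (adjusted p = 1.02e-11). Its DLD1 levels lay below the array medians and signal over background was not assessed, so no fold is given. No genotype difference was called for it in DLD1 (0.07, adjusted p = 0.759). The remaining DSC1, DSG1, DSG3 and DSG4 averaged between 5.61 (DSC1, HCT116 mutant-only) and 6.30 (DSG4, HCT116 wild-type-only), below the array medians.

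**Figure D3:**
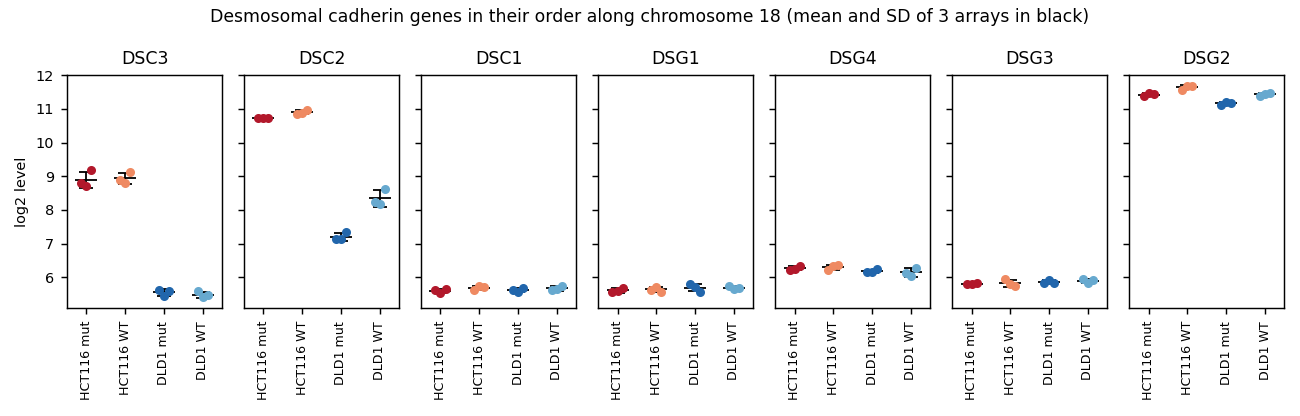
Log2 level of the 7 desmosomal cadherin genes (vertical axis) in their order on chromosome 18 (horizontal axis), by group; points are arrays, and black marks are the mean and SD of 3. DSC2 and DSC3 separate the lines, and for DSC2 and DSG2 the arrays of the genotypes do not overlap in either line. The 4 genes between DSC2 and DSG2 stay below 7 in every group.

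Wider lists of junction genes, chosen with earlier results of these data known, held further calls in both lines. The shares of all genes to set beside these lists are 4.02% higher and 2.15% lower in HCT116 mutant-only cells, and 5.66% and 3.11% in DLD1. Of 16 desmosome genes measured, which include 6 of the 9, 0 were higher and 2 lower in HCT116 mutant-only cells, and 1 was higher and 2 lower in DLD1 mutant-only cells. The addition to the genes above was PERP, a membrane protein of the desmosome, at -0.25 in HCT116 (adjusted p = 0.00518) and 0.02 in DLD1 (adjusted p = 0.853), and these values differed by -0.27 (adjusted p = 0.0229). Of 33 tight junction genes measured of 36 listed, 1 was higher and 4 lower in HCT116 mutant-only cells, and 1 higher and 1 lower in DLD1. These counts leave out MAGI1, a scaffold of the tight junction that the annotation used here gives no cluster of its own. Another table deposited by the authors lists MAGI1 as down with a fold ratio of 2.5397248. The group values of that table's comparison equal the HCT116 group means here to within 6.7e-07. PRKCZ, an atypical protein kinase C of the polarity complex, was higher in HCT116 mutant-only cells (0.25, adjusted p = 0.00864), and its partner PARD6B was lower (-0.25, adjusted p = 0.0147).

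Of 14 adherens junction genes measured, 4 were higher, 1 was lower and 9 were not called in HCT116 mutant-only cells, while 1 was higher, 2 were lower and 11 were not called in DLD1. Of all genes 4.02% were higher and 2.15% lower in HCT116 mutant-only cells, and 5.66% and 3.11% in DLD1. VCL, vinculin, was higher by 0.41 in HCT116 mutant-only cells (adjusted p = 0.00132), as was NECTIN1, a nectin adhesion receptor, by 0.33 (adjusted p = 0.00934). AFDN, afadin, which ties nectins to actin, was lower in mutant-only cells of both lines, at -0.27 in HCT116 (adjusted p = 0.0107) and -0.21 in DLD1 (adjusted p = 0.0338). NECTIN3 was lower in DLD1 mutant-only cells (-1.03, adjusted p = 7.69e-05), and CDH17, the intestinal liver-intestine cadherin, was higher there (0.60, adjusted p = 0.000144). The DLD1 means of NECTIN3, 6.33 in mutant-only and 7.36 in wild-type-only cells, lay below the array medians.

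Among 11 keratin and hemidesmosome genes, the partners of desmosomes on the filament side and of the cell's basal anchor, 1 was higher and 0 lower in HCT116 mutant-only cells, and 0 were higher and 3 lower in DLD1. The shares of all genes were 4.02% higher and 2.15% lower in HCT116, and 5.66% and 3.11% in DLD1. KRT20, a keratin of differentiated intestinal cells, averaged 6.78 ± 0.140 in DLD1 mutant-only and 10.92 ± 0.0597 in DLD1 wild-type-only cells (SD, n = 3 each), a log2 difference of -4.14 (adjusted p = 4.7e-13). The mutant-only mean of KRT20 lay below the array medians. ITGB4, the integrin subunit of hemidesmosomes, was lower in DLD1 mutant-only cells (-0.46, adjusted p = 0.000197), as was PLEC, plectin (-0.20, adjusted p = 0.03). In HCT116 mutant-only cells KRT8, a keratin of simple epithelia, was higher (0.20, adjusted p = 0.0367).

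Of 24 regulators of junction genes measured, 1 was higher and 1 lower in HCT116 mutant-only cells, and 2 were higher and 1 lower in DLD1. Beside shares of 4.02% and 2.15% of all genes in HCT116, and 5.66% and 3.11% in DLD1, counts this small say nothing particular of the regulators as a set. EHF, an epithelial transcription factor of the ETS family, was higher in mutant-only cells of both lines, by 2.28 in HCT116 (adjusted p = 5.4e-08) and 0.52 in DLD1 (adjusted p = 0.0105). TWIST1, a transcription factor known for repressing epithelial genes, was lower in HCT116 mutant-only cells (-0.40, adjusted p = 0.0348). In DLD1 mutant-only cells KLF4, a transcription factor of differentiated gut epithelium, was higher (0.30, adjusted p = 0.00134), and MYLK, a kinase that tightens actomyosin, was lower (-0.61, adjusted p = 4.02e-05). The DLD1 mutant-only mean of MYLK, 7.21, lay below the array medians. The calls of PARD6B, AFDN, PLEC, KRT8 and TWIST1 ended when single arrays were left out, with adjusted p-values up to 0.066, 0.133, 0.108, 0.122 and 0.118 in that order.

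For DSC2, PKP2 and TJP3, the genes with the widest, the next widest and the third widest range of group means among the 9, the genes with the closest profile were listed by the root mean square difference of centred log2 values over the 12 arrays. DSC2 was nearest to CD44 (0.181), NECTIN3 (0.262) and AHNAK2 (0.305). Like DSC2, CD44 was lower in DLD1 mutant-only cells (9.29 ± 0.105) than in DLD1 wild-type-only cells (10.18 ± 0.124) (SD, n = 3 each). It averaged 12.95 in HCT116 mutant-only and 12.78 in HCT116 wild-type-only cells. There its mutant-only arrays lay above the wild-type-only ones, whereas those of DSC2 lay below, and neither difference was called. PKP2 was nearest to LGALS8 (0.0879), ING2 (0.0961) and ARHGAP31 (0.1), and TJP3 to GRAMD4 (0.102), STOM (0.123) and TESC (0.133). These are likenesses of level across 4 groups, and say nothing of shared control.

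**Figure D4:**
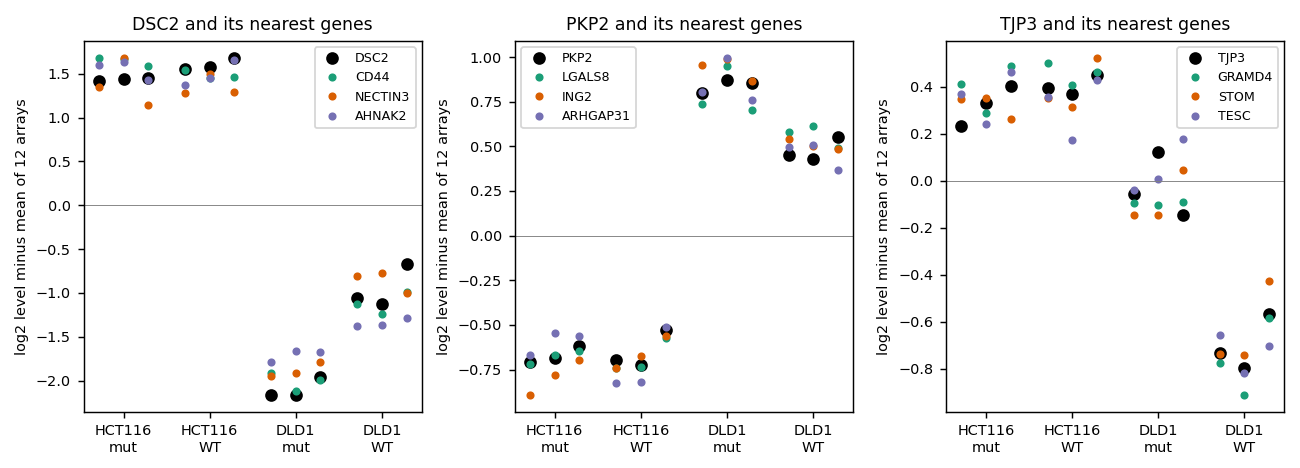
Centred log2 level (array value minus the gene's mean over the 12 arrays, vertical axis) of DSC2, PKP2 and TJP3 and of the 3 genes nearest to each, by group and array. CD44 is nearest to DSC2 at a root mean square difference of 0.181, and the genes nearest to PKP2 and TJP3 lie within 0.133. In HCT116 the mutant-only arrays lie above the wild-type-only ones for CD44 and below them for DSC2.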

How the data were processed

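Total RNA (500 ng a sample, per the labels' protocols) was hybridised to Affymetrix HuGene arrays, 12 in all. Log2 levels of 28869 transcript clusters were deposited by the authors; how background was corrected and values were normalized is not given in the sources used here. The authors also deposited a separate table for each genotype comparison, with a p-value and a fold ratio. By their names these tables hold clusters chosen on fold ratio and p-value. Their group columns carry numbers that no label holds, and only DSC2 and MAGI1 are quoted from them.

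Gene names came from the platform annotation, updated by gene identifier to the GRCh38.p14 gene table. Of the clusters 19310 had 1 symbol, 1752 several and 7807 none, and only those with 1 gene were fitted, OCLN and OCLNP1 being the exception. Of 685 genes with several clusters the brightest was kept. The targeted transcript is not reported here.

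A model of 4 group means was fitted in R 4.3.3 by limma 3.58.1 (functions lmFit, eBayes; 8 residual and 5.17 prior degrees of freedom), two-sided, with 5 contrasts. The code was tested on simulated data. The members, the gene lists and the motifs were chosen with earlier results of these data known. Genes named from the lists are up to 3 per list and genotype comparison with the smallest adjusted p among those called; nearest profiles were sought among genes with a range of group means of at least 0.5. Replicate numbers are shared by the groups: deviations from the group means correlated at 0.129 to 0.462 for arrays of a line with the same number (6 pairs) and at -0.321 to 0.170 for different numbers. The numbers were therefore used to pair the arrays within a line in an alternative fit, while the main model, which gave the calls above, left them out. Across lines the same number gave 0.0657 to 0.471 (12 pairs) and different numbers -0.413 to 0.191; not every such pair passed 0.1, and a block across lines, fitted for the line comparisons, changed no call on the 9. Signal over background was not assessed; precision is limited by the 3 arrays a group. Other alternatives were other scalings, filters and array weights, the array groups fitted alone and each array left out.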

Additional observations from a re-analysis of the deposited data

Results flagged for a closer look

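The genotype effect differed between HCT116 and DLD1 for 3 of the 9 junction genes, by limma's interaction test adjusted over all genes. For DSC2 the HCT116 difference minus the DLD1 difference was 0.97 (adjusted p = 0.000864), with the larger deficit of mutant-only cells in DLD1. For PKP2 it was -0.38 (adjusted p = 0.0143) and for TJP3 -0.76 (adjusted p = 0.000798), both being higher in DLD1 mutant-only cells than in DLD1 wild-type-only cells. The mutation, the line and the derived line differ together between these arrays and cannot be told apart.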

How the results depend on the processing

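The calls rest on 3 arrays a group. Over 77 gene results and 1604 alternative values, 1520 kept direction and call, 52 lost the call, 13 gained one and 19 changed sign, none of these called either way; the cause was not tested. With the replicate number as a block the calls over all genes were 1809 in HCT116, 2483 in DLD1 and 2079 for the difference between lines, where 5 of the 9 genes passed instead of 3 (JUP and OCLN were added); no other call on the 9 changed. Array weights gave 4706 in DLD1 and 2190 for the difference. The 6 HCT116 arrays fitted alone, with fewer samples, gave 666 calls and 1 of the 9 genes. Leaving out 1 array gave 1 to 3 of the 9 genes and 682 to 1184 of all genes in HCT116, and 939 to 1727 in DLD1. Signs changed for PKP3 in DLD1 (-0.0207 by quantile scaling; -0.0103 to 0.0601 leaving out arrays), TJP1 in DLD1 (0.0112 by median centring; -0.0842 to 0.00373), PERP in DLD1 (-0.0190 by cyclic loess) and CDH17 in HCT116 (-0.0188 by array weights; -0.0561 to 0.0891). Between lines they changed for DSP in wild-type-only cells (0.0573 by quantile, 0.0342 by cyclic loess; -0.0278 to 0.00439), DSP in mutant-only cells (-0.0162) and JUP in wild-type-only cells (-0.0105), both by median centring. Leaving out arrays, HCT116 differences spanned -0.0605 to 0.0376 for PKP2, -0.109 to 0.157 for NECTIN3 and -0.000903 to 0.0496 for KLF4.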

Other observations

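Other epithelial genes, picked after their values were seen, also separated the lines, in both directions. CDH1, E-cadherin, averaged 11.05 ± 0.0443 in HCT116 mutant-only and 12.66 ± 0.0490 in DLD1 mutant-only cells (SD, n = 3 each), a log2 difference of -1.60 by limma (adjusted p = 6.05e-12), and -1.85 among wild-type-only cells (adjusted p = 1.45e-12). CDX2, an intestinal transcription factor, was lower in HCT116, at a log2 difference of -1.63 among mutant-only and -1.55 among wild-type-only cells. GRHL3, a grainyhead transcription factor of epithelial barriers, was lower in HCT116 among mutant-only cells, at -3.15 (adjusted p = 9.16e-13). CLDN1, a claudin of tight junction strands, was lower there, at -2.79 (adjusted p = 3.11e-10). The HCT116 mutant-only means of GRHL3 and CLDN1, 6.88 and 6.43, lay below the array medians. ZEB1, a repressor of epithelial genes, was higher in HCT116 among mutant-only cells (0.71, adjusted p = 9.65e-06), at a level of 7.05 against 6.34 in DLD1 mutant-only cells. Both of these ZEB1 levels lay below the array medians.

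Further keratin, cadherin and claudin genes, also picked after their values were seen, went both ways between the lines. Among mutant-only cells CDH17 averaged 5.59 in HCT116 and 11.11 in DLD1. The keratin KRT80 averaged 7.25 in HCT116 and 9.11 in DLD1 mutant-only cells, and the claudin CLDN2 7.09 and 8.03. These HCT116 means lay below the array medians. Other such genes were higher in HCT116. Among mutant-only cells KRT23, a keratin, was higher in HCT116 by 4.87 on the log2 scale (adjusted p = 1.15e-13), and CDH3, P-cadherin, by 1.07 (adjusted p = 2.92e-09). The DLD1 mutant-only mean of KRT23, 6.33, lay below the array medians. The claudins CLDN3 and CLDN4 were higher by 0.62 (adjusted p = 0.000161) and 0.60 (adjusted p = 9.5e-06), and the keratin KRT19 by 0.50 (adjusted p = 0.00027).

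Of CDH1, CDX2, GRHL3, CLDN1 and ZEB1, CDH1 alone had a called genotype difference, 0.20 in HCT116 (adjusted p = 0.0251). In DLD1 the CDH1 difference was -0.04 (adjusted p = 0.709), and the difference between the lines did not pass (adjusted p = 0.0519). CDH3 was also higher in HCT116 mutant-only than in HCT116 wild-type-only cells by limma (0.26, adjusted p = 0.0211), with no called difference in DLD1. The DLD1 difference of CDH17 is given above.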
